A study of Mus musculus with 8 samples.

Results

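The comparison described here is dietary restriction (DR) against free feeding (ad libitum, AL) in mouse liver, pooling both genotypes of the study with genotype held as a covariate. Its members were assigned by their titles, where CR stands for restriction, and are all 8 of the 8 male mice of the study, 4 DR and 4 AL. In each feeding group, 2 mice were wild type (WT, Npy+/+) and the other 2 carried a homozygous deletion of the neuropeptide Y gene (KO, Npy-/-). The strain background of all mice mixes 129S6/SvEvTac with 129S-Npytm1Rpa/J. AL mice ate freely, and from 12 weeks of age DR mice were given 70% of what the AL mice ate on average per day. The sources used here do not give the age at which livers were taken. The deletion is present in the whole animal, so the KO mice differ from WT in every tissue and not in the liver alone.

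Dietary restriction is the intervention best known to lengthen life in laboratory rodents. The liver is one of the organs in which it acts most directly, since hepatocytes switch between storing and releasing fuel as food intake changes, and genes of lipid synthesis, glucose production and detoxification are regulated with feeding. Neuropeptide Y is a peptide transmitter of hypothalamic neurons that drive feeding and that become more active when energy is short. The question the comparison addresses is which liver transcripts change in level under DR in mice of either genotype.

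Each mouse had its own one-colour CodeLink Mouse Whole Genome Bioarray with 36227 probes, and the deposited value is an intensity on a linear scale. The table names probes by number only. Nothing in the files links a number to a gene, so no gene, pathway or cell type can be read from what follows and no probe sequence is shown. The labelled tissue and the deletion of Npy could for the same reason not be checked against marker genes. The median intensity of an array lay between 67.9 and 96.1, and 5.27% to 7.71% of its values were at or below the floor of 7 units used here. The mean correlation of an array with the other 7 was 0.952 for WT-AL replicate 2 and 0.957 for KO-DR replicate 2, and 0.964 to 0.968 for the other arrays. These 2 mice stand apart in opposite feeding groups, and the counts of called probes and of probes at 2-fold are given below with and without each of them.

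Few probes passed the main test of DR against AL, and their number depended on the mice and the settings used. Of 25264 probes tested, 16 passed an adjusted p of 0.05, which is 0.0633% of the tested probes, in limma's moderated test (Benjamini-Hochberg, over all tested probes). Of these, 5 were higher (0.0198% of the tested probes) and 11 lower (0.0435%) under DR. The 5 that rose did so between 2.18-fold and 5.33-fold, with a median of 2.40-fold, and the 11 that fell did so between 1.85-fold and 3.34-fold, with a median of 3.07-fold. In all 16 the 4 DR mice lay on one side of the 4 AL mice, against 5.51% of all tested probes without such overlap (2.68% higher and 2.83% lower under DR), which their choice by the smallest p largely fixes. The empty gap between the nearest DR and AL mouse ran from 0.41 to 1.67 log2 units in these 16 probes. The count rested on every mouse: it was 0 without WT-AL replicate 2, without either WT-DR mouse or without either KO-DR mouse, 4 without either KO-AL mouse and 5 without WT-AL replicate 1. It was also 5 when each group had its own mean in place of an additive genotype term, 0 under a block of replicate numbers, and 250 when the prior variance followed probe brightness. Each fit without a mouse also had 1 fewer residual degree of freedom, and why the count fell in these fits was not tested.

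**Figure D1:**
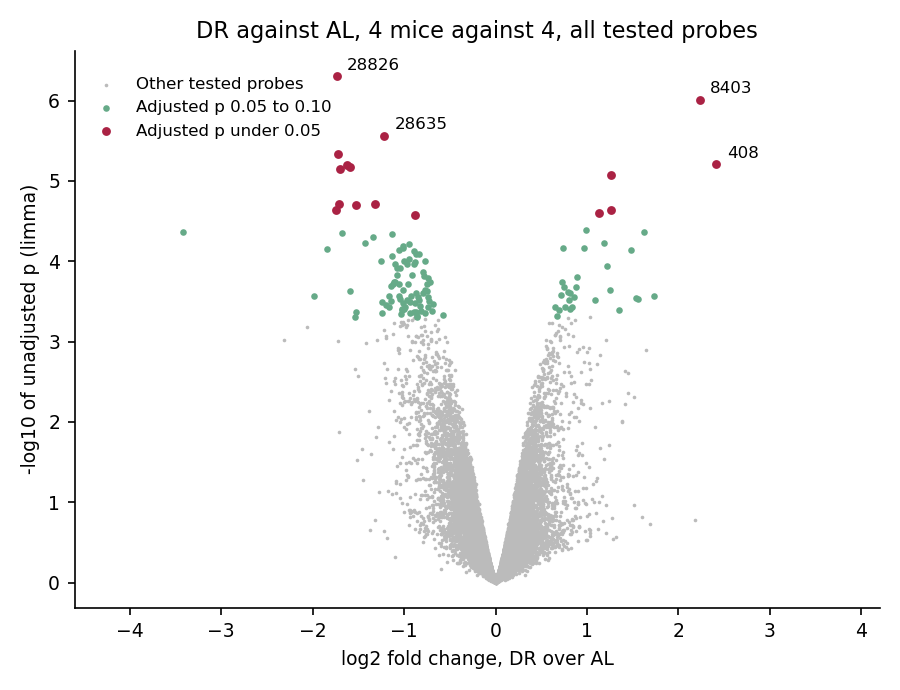
Each point is 1 of the 25264 tested probes, with the log2 fold change of DR over AL (4 mice against 4, genotype as a covariate) on the horizontal axis and the -log10 of the unadjusted limma p on the vertical axis. The 16 probes past an adjusted p of 0.05 are red, 5 to the right and 11 to the left of 0, and those with an adjusted p between 0.05 and 0.10 are green.

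The pair of rising probes with the smallest p, 8403 and 408, also had the largest rises among the 16. In the deposited intensities, probe 8403 measured 300.5 and 335 in the WT-AL mice and 394.5 and 184.3 in the KO-AL mice, against 1683 and 1578 in the WT-DR mice and 981.6 and 1079 in the KO-DR mice. Every DR mouse was thus far above every AL mouse, with KO-AL replicate 2 the lowest of all 8. After normalization its log2 intensity was 8.15 ± 0.36 in AL and 10.4 ± 0.30 in DR (SD, n = 4 each). Here and for the probes named below, this SD is taken over both genotypes. It therefore includes any difference between them, which the test takes out. For this probe, the result of the test is given next. Probe 8403 had a 4.70-fold rise (log2 fold change 2.23, 95% confidence interval 1.84 to 2.63, adjusted p = 0.0123 by limma). Over all alternatives its log2 fold change stayed between 2.10 and 2.40, while its adjusted p by limma ran from 9.64e-05 to 0.119.

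Probe 408 measured 267.8 and 278.1 in the WT-AL mice and 306.7 and 109.6 in the KO-AL mice, against 1553 and 1300 in the WT-DR mice and 803.1 and 1013 in the KO-DR mice. Its pattern over the mice was like that of probe 8403, with the WT-DR mice above the KO-DR mice and KO-AL replicate 2 at the bottom. Its log2 intensity was 7.77 ± 0.59 in AL and 10.2 ± 0.34 in DR (SD, n = 4 each), a 5.33-fold rise (log2 fold change 2.42, interval 1.87 to 2.96, adjusted p = 0.0223 by limma). Without KO-AL replicate 2 the log2 fold change was 2.17 (adjusted p = 0.0407 by limma). Over all alternatives the adjusted p by limma ran from 0.00173 to 0.132.

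Of the probes that fell, probe 28826 had the smallest p. It was a bright probe, at the 91.0th percentile of the tested probes by mean log2 intensity. Its deposited intensities were 2355 and 2799 in the WT-AL mice and 2173 and 1735 in the KO-AL mice, and they were 927.7 and 952.2 in the WT-DR mice and 422.9 and 460.2 in the KO-DR mice. All DR mice were below all AL mice, and the KO-DR mice were the lowest. The fall was 3.33-fold, from 11.1 ± 0.29 in AL to 9.38 ± 0.50 in DR (log2 intensity, SD, n = 4 each), with a log2 fold change of -1.74, an interval of -2.02 to -1.45 and an adjusted p = 0.0123 by limma. The adjusted p by limma ran from 4.53e-05 to 0.117 over the alternatives.

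Probe 28635, near the middle of the tested probes in brightness, fell 2.33-fold. It measured 211.1 and 219 in the WT-AL mice and 307.7 and 250.2 in the KO-AL mice, against 94.15 and 97.18 in the WT-DR mice and 116.6 and 95.99 in the KO-DR mice. All 4 DR mice were below all 4 AL mice. On the log2 scale it went from 7.90 ± 0.16 to 6.68 ± 0.28 (SD, n = 4 each), a change of -1.22 (adjusted p = 0.0223 by limma, interval -1.47 to -0.97). Over the alternatives its adjusted p by limma ran from 0.00196 to 0.125.

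**Figure D2:**
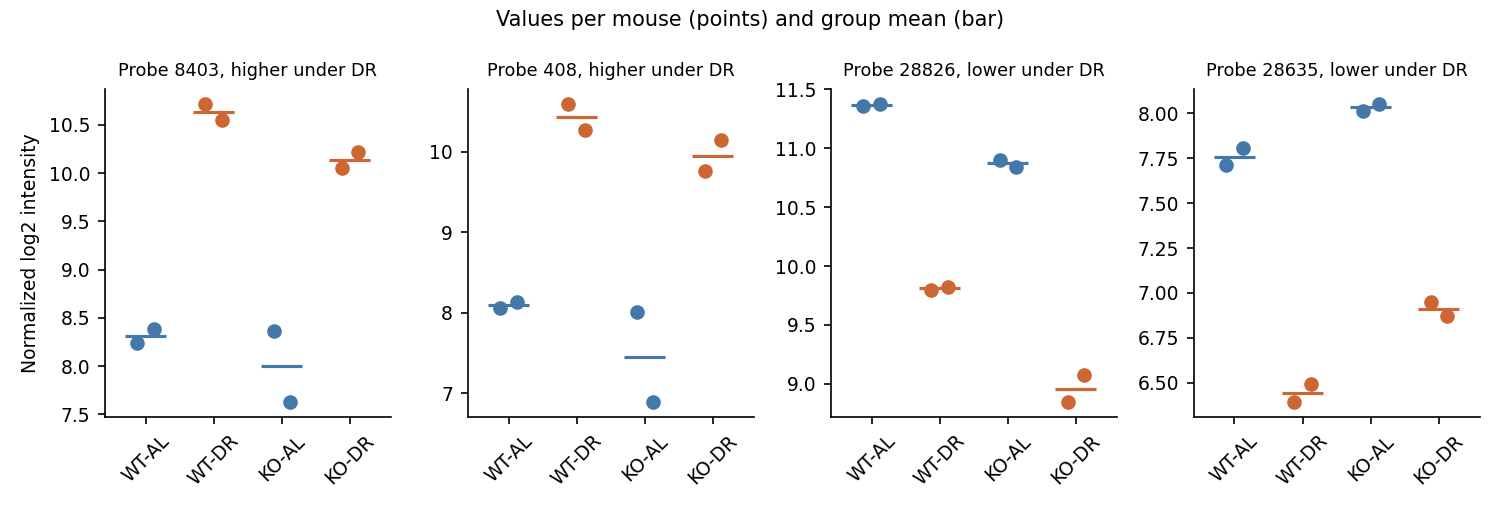
Normalized log2 intensity of the probes described above, with 1 panel per probe, 1 point per mouse and a bar at the mean of each group of 2 mice; AL is blue, DR orange, and each panel has its own vertical scale. In every panel both DR groups lie apart from both AL groups, and KO-AL replicate 2 lies below the other AL mice for probes 8403 and 408.

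The DR effect of the 16 probes was next taken in WT and in KO apart, each estimated from 2 mice against 2 that share no array. The probes were chosen by a fit with 1 DR effect for both genotypes, which counts a difference between the genotypes as spread and so favours probes with like effects. The values below are therefore a description. The absolute log2 effect ran from 0.94 to 2.33 in WT, with a median of 1.49, and from 0.83 to 2.50 in KO, with a median of 1.56. It was larger in WT for 8 probes and larger in KO for the other 8. All 16 had the same sign in both genotypes, as 53.7% of the tested probes did. For each of the 16, the 95% confidence interval of the difference between the 2 effects held 0. These intervals were wide, reaching from -1.30 to 1.36 log2 units over the 16, and do not show that the effects were equal. Tested over all probes, the difference of the DR effects passed an adjusted p of 0.05 for no probe (0% of those tested) by limma. The lowest adjusted p was 0.97. Of the 25264 tested probes, 1198 were under an unadjusted p of 0.05 by limma, a share below 0.05. Without WT-AL replicate 1 some probes passed, all with a lower DR effect in KO. The WT-AL group was then replicate 2 alone, whose mean correlation with the other arrays was the lowest (0.952).

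**Figure D3:**
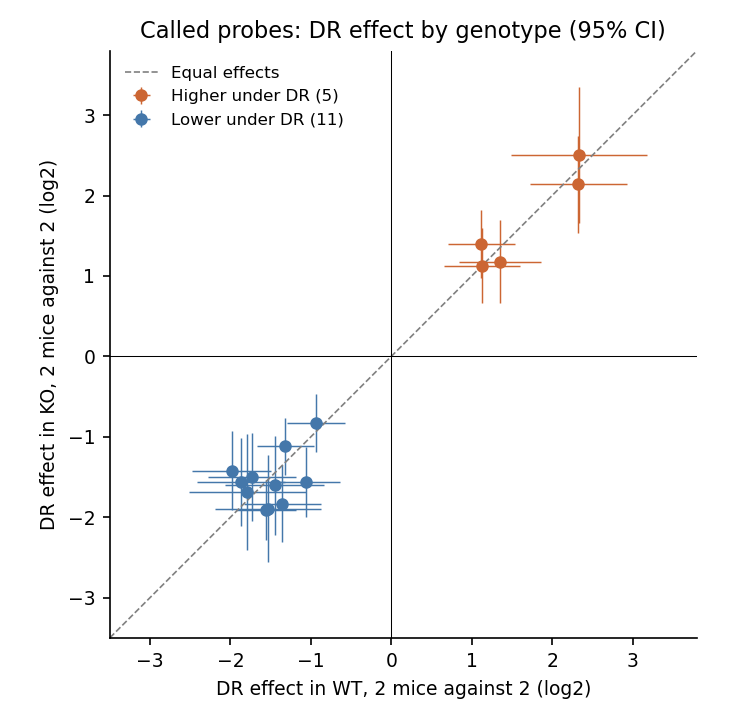
DR effect in WT (horizontal) and in KO (vertical) for the 16 called probes, in log2 units, with 95% confidence intervals from the fit with 1 mean per group; the dashed line marks equal effects. Every interval of either genotype excludes 0 and the points lie near the line, both of which the choice of these probes favours.

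For probe 8403 the effect was 2.33 in WT and 2.14 in KO on the log2 scale, and the difference of KO minus WT had an interval of -1.04 to 0.67. Probe 408 had effects of 2.33 and 2.50, with an interval of the difference of -1.02 to 1.36. Probe 28826 fell by 1.56 in WT and fell by 1.91 in KO, with an interval of -0.88 to 0.17. Probe 28635 fell by 1.32 in WT and fell by 1.12 in KO, with an interval of -0.31 to 0.70. None of these intervals excluded 0. Seen mouse by mouse, the 16 probes moved from the AL mean of the same genotype by a median of 1.42 and 1.5 log2 units in the WT-DR mice and 1.56 and 1.51 in the KO-DR mice, and the smallest single move in the direction of the fit was 0.77.

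The same fit gives the level of each probe in KO relative to WT at equal feeding. Among the 16 probes called for DR, 10 had an unadjusted p under 0.05 for genotype by limma, against 6.74% of all tested probes, and the smallest adjusted p among them was 0.666. In these 10 the level was lower in KO for 4 and higher for 6. The median absolute log2 value in the 16 was 0.39 for genotype and 1.61 for DR. Their choice by the smallest p for DR largely fixes that order. Over all tested probes the median was 0.14 for either term. Probe 28826 was lower in KO by a log2 difference of -0.67 (SE 0.12, adjusted p = 0.666 by limma), and probe 28635 higher by 0.37 (SE 0.11, adjusted p = 0.72 by limma). Both terms of the fit share each probe's estimated spread, so their p-values are not independent of each other. The median residual SD of the fit was 0.226 in the 16 probes and 0.232 over all tested probes. Why 10 of the 16 had a low p for genotype was not tested.

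At an adjusted p of 0.10, 124 probes passed (0.491% of those tested), 33 higher and 91 lower under DR. Their folds had a median of 2.01. The DR and AL mice did not overlap for 119 of them, against 5.51% of all tested probes, which their choice by p again favours. This list held 15 probes without WT-AL replicate 2, 0 without KO-DR replicate 2 or without WT-DR replicate 1, and between 4 and 28 without any of the other mice. With all mice it held 17 probes in the values as deposited (6 higher, 11 lower), 3 when dim probes were kept and 310 when the dimmer 50% were left out. It held 45 with 1 mean per group, 58 under the replicate block and 397 when the prior variance followed brightness.

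Counting by size of change alone, without a test, 1130 probes differed by at least 1.5-fold, 187 by at least 2-fold (0.74% of those tested), 24 by at least 3-fold and 6 by at least 4-fold. The median fold over all tested probes was 1.10. Among the 187 probes at 2-fold or more, 65 were higher and 122 lower under DR. The DR and AL mice did not overlap for 30 of the 65 and for 91 of the 122. Over all tested probes, 2.68% were higher and 2.83% lower under DR without overlap. Of the 187, 62 reached an adjusted p of 0.10 by limma and 15 reached 0.05, against 0.491% and 0.0633% of all tested probes. Choosing probes by a 2-fold change favours all of these counts. The 95% confidence interval of the difference of the DR effects excluded 0 for 13 of the 187. Over all 25264 tested probes, the same criterion, an unadjusted p under 0.05 by limma, was met by 1198. Within genotypes, 113 of the 187 were at 2-fold or more in WT, 136 in KO and 62 in both. A smaller change than 1.5-fold, or the opposite direction, was seen in WT for 26 and in KO for 12 of them. Of all tested probes, 1.66% were at 2-fold or more in WT, 2.07% in KO and 0.245% in both in the same direction. The choice of the 187 by their joint change favours larger shares.

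More probes were lower than higher at 2-fold with all mice, but this lead did not hold without each mouse. Each such run leaves 1 mouse in a group. Without WT-AL replicate 1 this is WT-AL replicate 2, the array with the lowest mean correlation with the others (0.952). Without KO-DR replicate 1 it is KO-DR replicate 2, the array with the next lowest (0.957). Without WT-AL replicate 1, 167 probes were higher and 166 lower. Without KO-DR replicate 2 the numbers were 88 and 90, and without WT-AL replicate 2 they were 94 and 106. Without KO-DR replicate 1 the lead was largest, 92 against 212. Over all tested probes 13365 were above and 11899 below 0, with a median log2 fold change of 0.013.

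**Figure D4:**
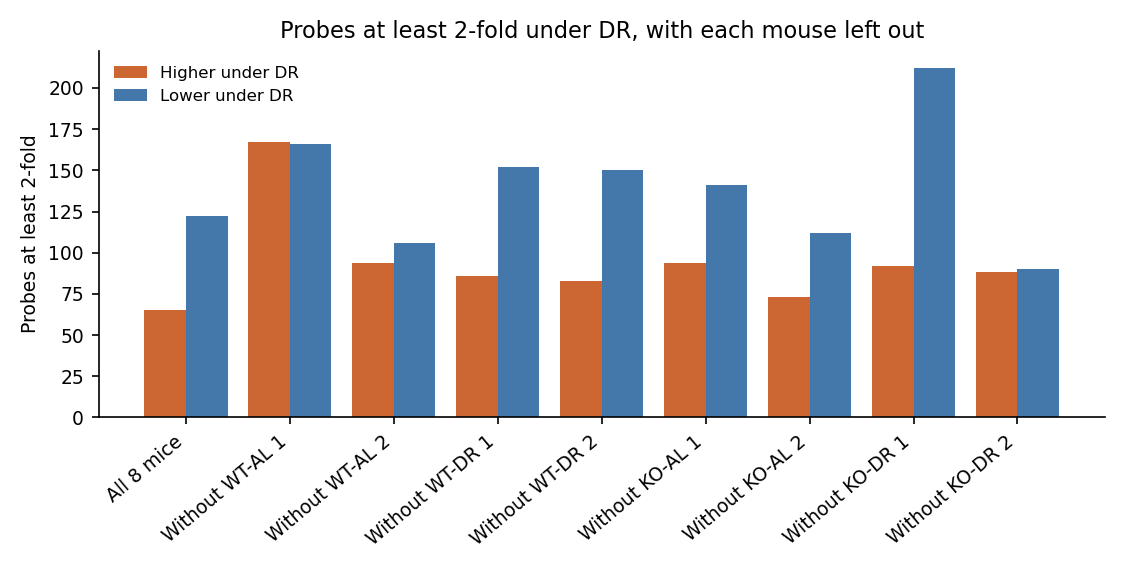
Number of probes at least 2-fold higher (orange) or lower (blue) under DR, with all 8 mice and after each mouse was left out and the arrays were normalized again. The counts are 65 and 122 with all mice and become nearly equal without WT-AL replicate 1 (167 and 166) or KO-DR replicate 2 (88 and 90).

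Dim probes were measured less precisely than bright ones. With the tested probes in 3 equal classes by mean log2 intensity, the median standard error of the log2 fold change was 0.21 in the dim class, 0.16 in the middle class and 0.14 in the bright class. The dim class held 78 of the 187 probes at 2-fold or more but 1 of the 16 called probes and 11 of the 124 at an adjusted p of 0.10. The bright class held 58, 9 and 72 of them. The share of probes whose DR and AL mice did not overlap was 3.14% in the dim, 4.51% in the middle and 8.88% in the bright class. Among the 58 bright probes at 2-fold or more, 12 were higher and 46 lower under DR, while in the dim class 31 were higher and 47 lower. Whether the 2 directions were split differently by brightness was not tested.

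**Figure D5:**
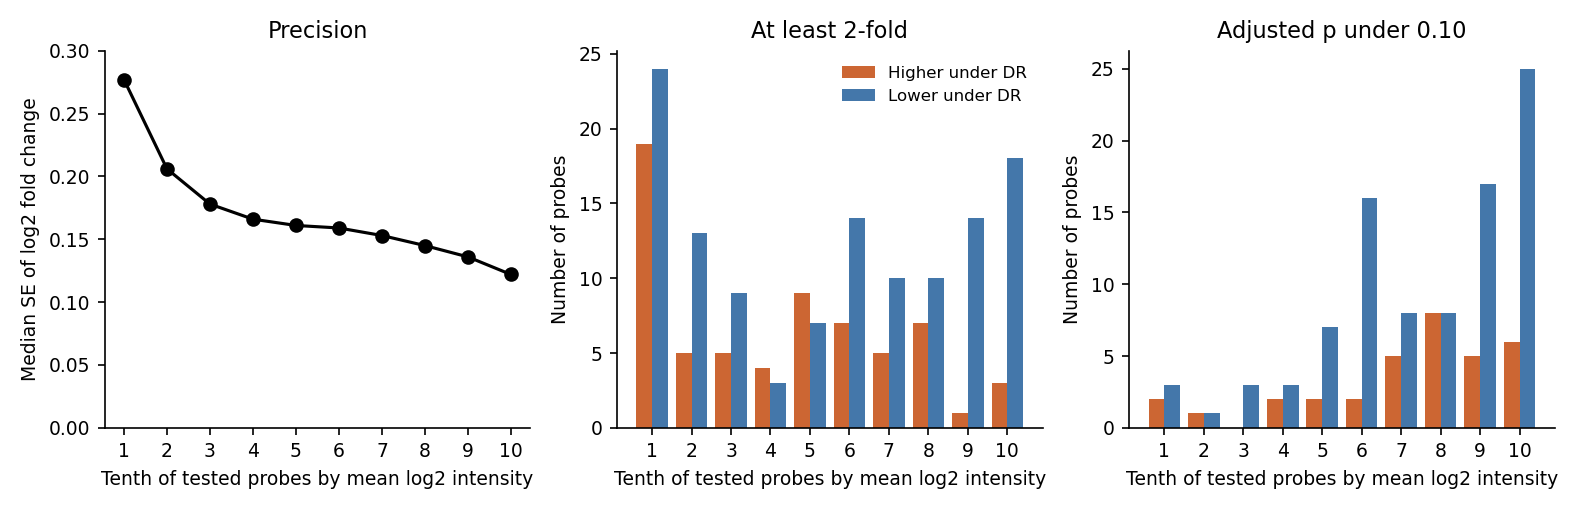
Tested probes in 10 equal classes from the dimmest (1) to the brightest (10) by mean log2 intensity. The left panel gives the median standard error of the log2 fold change of DR over AL, which falls from 0.277 to 0.122; the other panels give the number of probes at least 2-fold higher (orange) or lower (blue) under DR, and the number at an adjusted p under 0.10.

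The spread between mice was of similar size in both feeding groups. The median over probes of the SD between mice, pooled within genotype, was 0.21 log2 units among AL mice and 0.20 among DR mice. For the SD between the 2 mice of a single group, the median in WT was 0.18 for AL and 0.15 for DR. In KO it was 0.15 for AL and 0.17 for DR. The pooled SD combines 2 such groups, so its medians are not comparable with those of single groups. The pooled SD was larger among DR mice for 48.0% of the tested probes. The order of the feeding groups thus differed between the genotypes, and no test was made of it.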

How the data were processed

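RNA from the livers of 8 mice was labelled and hybridised for 18 hours to 1 array per mouse, per the labels' protocols. The authors deposited 1 linear intensity per probe and array, and the sources used here do not say how they corrected the background or normalized. Deposited values run from -16.7 to 35302. The code -9999 was read as missing, which left 36092 of 36227 probes complete on all arrays.

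Values below 7 were set to 7, log2 was taken and arrays were quantile normalized, which hides a shift of all transcripts. The 30th percentile of the mean log2 value served as the filter on dim probes, and the 25264 complete probes above it were tested with limma 3.58.1 in R 4.3.3, two-sided, with genotype and feeding as additive terms (5 residual degrees of freedom) and Benjamini-Hochberg adjustment. The median standard error of the log2 fold change was 0.16. The difference of the DR effects came from a fit with 1 mean per group (4 residual degrees of freedom). Without gene names, at most 2 probes per direction are named, those with the smallest p. Gene lists that had been prepared could not be tested. The comparison and its rule were chosen with earlier results of these data known. The labels say that the 2 mice of a group are separate animals. Slide and scan date were not used here. The test was tried on simulated data. Figures were drawn with matplotlib 3.10.9. The number of arrays limits the precision.

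Equal replicate numbers were not treated as pairs. The deviations from the group mean had correlations of -0.245 to 0.282 between mice of equal number, over 6 pairs of groups. Alternatives covered normalization, the floor, a pseudocount, the dim-probe filter, thresholds, the model terms, a replicate block, array weights, the prior variance and leaving out each mouse. Applying them to the counts at 2-fold and at an adjusted p of 0.10 was added after the data were seen.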

Additional observations from a re-analysis of the deposited data

Results flagged for a closer look

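For 3 measures the lowest of the 4 mice of a feeding group lay far from the other 3. In probe 408, KO-AL replicate 2 took 0.899 of the range of the AL mice as its gap to the nearest of them. For the mean correlation with the other arrays, WT-AL replicate 2 (0.952) had a gap of 0.856 of the range of the AL mice, and KO-DR replicate 2 (0.957) a gap of 0.873 of the range of the DR mice. Such gaps were looked for in 12 sets of 4 mice, and chance alone marks about 1 in 20 if values are independent and normally distributed. The mean correlations share pairs of arrays and the named probes were chosen by p, so this rate need not hold here. Each feeding group holds both genotypes, so its range includes any difference between them. The counts without these mice stand with the results above.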

How the results depend on the processing

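With all mice, the 16 probes called for DR (5 higher, 11 lower) became 8 (1 higher, 7 lower) in the values as deposited, 0 without a filter on dim probes, 143 with the filter at the 50th percentile, 103 with a pseudocount of 16, 250 with an intensity trend, 271 with trend and robust prior, 27 (11 higher, 16 lower) with array weights, 0 under the replicate block, 5 with 1 mean per group and 2 with feeding alone. Median scaling and a floor of 20 gave 16 each, sharing 14 and 16 of the probes. Other thresholds gave 124 (adjusted p of 0.10), 498 (unadjusted p of 0.01 and 1.5-fold) and 2190 (unadjusted p of 0.05). All 16 were among the calls with the pseudocount, the trend, trend and robust prior and array weights, and 15 among those of the stricter filter. Leaving out each mouse gave 0 to 5, with 1 fewer residual degree of freedom; otherwise the causes were not tested. For the difference of the DR effects, no probe passed under any alternative with all mice at an adjusted p of 0.05 or 0.10, the replicate block included, and 0 to 6 did without each mouse; 220 passed an unadjusted p of 0.01 and 1.5-fold, and 1198 an unadjusted p of 0.05. In the deposited values the median over all probes was -0.33 for that difference and -0.039 for DR against AL. The main values were 0.016 and 0.013. The log2 fold changes of the 4 named probes kept their sign under every alternative run. The 187 probes at 2-fold became 503 without the filter, 114 with the stricter one and 103 with the pseudocount. A lone mouse left in a group was taken to vary as the other groups do. The alternative for several probes of a gene could not be run without gene names.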

Other observations

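Some probes were at or below the floor of 7 in every mouse of one feeding group and above it in every mouse of the other. In the deposited intensities of the 36092 complete probes, 9 were at or below the floor in all 4 AL mice and above it in all 4 DR mice, with no value over 23.3. The reverse held for 11 probes, with no value over 29.8. None of them passed the filter on dim probes. They were tested only in the alternative fit with no such filter, over all 36092 probes. Detection marks per spot were not used here, and whether such low values are signal was not tested.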
